A study of Mus musculus with 36 samples.

Results

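The 34 genes described here act in glycolysis and in the response of cells to low oxygen. They were taken as a list of names, and each was measured by the probe set that carries that gene alone and has the highest mean signal over all arrays. Of the 34 genes, 32 had such a probe set, among 19938 genes measured on the array: 10 glycolytic enzymes, 6 regulators and transporters of glycolysis, 14 other targets of hypoxia signalling and 2 hypoxia factors. Gpi1 and Eno1, which encode 2 further glycolytic enzymes, were not matched to a probe set of their own and are named only. RNA from the colon of 36 mice was measured on Affymetrix arrays, with 1 array per animal. There were 8 animals given an siRNA against Tnf carrying O-methyl-propanediol nucleotides (siTNF-OMe-P), 6 given one carrying O-methyl nucleotides (siTNF-OMe), 6 given the unmodified siRNA (siTNF), 7 given a scrambled siRNA (scrambled) and 9 labelled Control. The siRNAs were delivered into the rectum. Every animal, Control included, is labelled as treated with 5% dextran sulfate sodium (DSS), a colitis-inducing agent that damages the gut lining, but the design text of the series mentions no Control animals, and their treatment is therefore uncertain. Labelled myeloperoxidase (MPO) activity, a neutrophil measure, was 0.009 to 0.088 U/mg in Control (median 0.038). It was 0.031 to 0.815 (median 0.41) with siTNF-OMe-P and 0.217 to 1.157 (median 0.51) with siTNF-OMe. With siTNF it was 0.057 to 0.703 (median 0.21), and in scrambled 0.238 to 1.35 (median 0.39). Colon length was 7.2 to 8.1 in Control and 5.2 to 7.1 in siRNA-dosed animals. In differences from Control, the siRNAs and the state of the colon cannot be told apart. Strain, sex, age and siRNA dose are not given in the sources used here.

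In low oxygen, the hypoxia-inducible factors HIF-1alpha (Hif1a) and HIF-2alpha (Epas1) escape degradation, which prolyl hydroxylases such as those made from Egln1 and Egln3 start when oxygen is plentiful. The stabilised factors bind short DNA elements and raise the transcription of glucose transporters, glycolytic enzymes and genes of blood vessel growth, matrix formation and mitochondrial turnover. In colitis, the surface epithelium is known to be hypoxic, and neutrophils and macrophages that enter the tissue rely on glycolysis and also raise Hif1a through inflammatory signals.

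Promoter windows of 6 members are shown because their genes carry the main results: Hk2, Pfkfb3, Adm and Pgk1 were higher than Control in every siRNA-dosed group, while Pdk1 and Kdm3a lay on the lower side once narrow arrays, defined below, were left out. Each window runs from 250 bases before to 50 bases after an annotated start, 300 bases in all, from RefSeq on GRCm38.p6. The windows are chr6:82774405-82774704 (minus strand) for Hk2, chr2:11502041-11502340 (minus) for Pfkfb3, chr7:110627407-110627706 (plus) for Adm, chrX:106186850-106187149 (plus) for Pgk1, chr2:71872974-71873273 (plus) for Pdk1 and chr6:71632868-71633167 (minus) for Kdm3a. Capitals mark the core of the HIF binding element, ACGTG or GCGTG, on either strand, so that it also reads CACGT or CACGC.
Hk2: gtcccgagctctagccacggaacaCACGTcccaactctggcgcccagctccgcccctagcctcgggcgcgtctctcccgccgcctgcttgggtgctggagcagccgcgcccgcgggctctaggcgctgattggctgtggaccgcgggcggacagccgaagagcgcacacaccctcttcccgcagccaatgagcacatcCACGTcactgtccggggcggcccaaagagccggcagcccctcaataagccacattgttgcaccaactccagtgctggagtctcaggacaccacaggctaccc
Pfkfb3: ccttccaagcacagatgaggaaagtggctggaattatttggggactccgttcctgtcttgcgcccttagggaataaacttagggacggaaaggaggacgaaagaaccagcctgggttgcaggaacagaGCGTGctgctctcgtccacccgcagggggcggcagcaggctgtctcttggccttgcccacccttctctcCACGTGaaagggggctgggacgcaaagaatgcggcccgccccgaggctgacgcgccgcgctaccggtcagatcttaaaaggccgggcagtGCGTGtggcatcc
Adm: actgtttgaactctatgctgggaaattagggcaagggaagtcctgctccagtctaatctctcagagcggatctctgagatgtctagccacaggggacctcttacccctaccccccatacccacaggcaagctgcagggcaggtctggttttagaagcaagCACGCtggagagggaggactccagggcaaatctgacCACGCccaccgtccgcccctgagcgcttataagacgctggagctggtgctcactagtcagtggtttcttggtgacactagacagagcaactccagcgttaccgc
Pgk1: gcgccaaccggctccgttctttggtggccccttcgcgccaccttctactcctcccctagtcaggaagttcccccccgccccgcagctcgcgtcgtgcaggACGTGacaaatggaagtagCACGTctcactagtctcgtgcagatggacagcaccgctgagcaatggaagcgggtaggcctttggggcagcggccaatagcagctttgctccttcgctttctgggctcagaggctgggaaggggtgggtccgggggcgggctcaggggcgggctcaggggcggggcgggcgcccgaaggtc
Pdk1: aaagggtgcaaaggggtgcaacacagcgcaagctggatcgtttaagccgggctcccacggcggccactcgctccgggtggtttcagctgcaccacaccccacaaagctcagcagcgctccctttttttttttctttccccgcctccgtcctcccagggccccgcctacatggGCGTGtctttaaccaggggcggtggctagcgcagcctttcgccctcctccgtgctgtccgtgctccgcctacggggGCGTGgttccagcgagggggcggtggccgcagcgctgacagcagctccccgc
Kdm3a: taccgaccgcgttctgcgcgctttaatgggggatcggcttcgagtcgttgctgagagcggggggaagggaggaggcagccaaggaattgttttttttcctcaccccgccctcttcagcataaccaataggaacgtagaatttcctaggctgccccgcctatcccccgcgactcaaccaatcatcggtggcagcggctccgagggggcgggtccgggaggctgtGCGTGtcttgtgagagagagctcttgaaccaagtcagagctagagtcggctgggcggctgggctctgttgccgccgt

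Hk2 and Pgk1 hold 2 matches each, all of the ACGTG form. The Pfkfb3 window holds 4, of which 2 overlap in 1 palindrome. Adm, Pdk1 and Kdm3a hold only the GCGTG form, with 2, 2 and 1 matches. Where a gene has several windows, the one with the most matches is shown: the other Pfkfb3 window holds 1, and the other Pdk1 window and the other two of Kdm3a hold 0. Of the 34 genes, 30 had at least 1 window in the table. Of their 42 windows, 33 (78.6%) held the core in either form and 23 (54.8%) held ACGTG, against 14358 (43.8%) and 6439 (19.6%) of all 32817 promoter windows of the same length. The core stood in the windows of 10 of 10 members called higher in all 4 comparisons with Control, in 6 of 6 called in some of them and in 11 of 12 called in none. The ACGTG form alone stood in 9 of 10, 6 of 6 and 6 of 12 of the same members. Here a gene counts if any of its windows holds a match, so these counts are not comparable with the shares per window. Aldoa and Pkm, both among the 10, each also have a window with 0 matches. Among the 42 windows, overlapping ones of Aldoa and of Eno1 count the same matches more than once. The 2 remaining genes with a window are Gpi1 and Eno1. A match is a description of the letters, not evidence of binding.

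The arrays differed in the spread of their values. The SD over 28853 probe sets ran from 1.55 to 1.89 log2 between arrays, and 8 arrays lay below 1.7: 2 of siTNF-OMe-P, 0 of siTNF-OMe, 1 of siTNF, 1 of scrambled and 4 of Control. These 8 are called narrow arrays, and results are given with and without them. The arrays were made in 3 amplification and 2 hybridization batches, each holding several groups. Tnf, the siRNA target, had a log2 signal of 8.42 to 8.94 (median 8.70) with siTNF-OMe-P, 8.41 to 9.09 (median 8.80) with siTNF-OMe and 8.72 to 9.42 (median 9.17) with siTNF. It was 8.36 to 9.47 (median 8.67) in scrambled and 7.60 to 8.68 (median 7.91) in Control. Relative to scrambled, Tnf differed by -0.23 (95% interval -0.54 to 0.08) with siTNF-OMe-P, by -0.12 (-0.46 to 0.21) with siTNF-OMe and by 0.19 (-0.14 to 0.52) with siTNF, and none passed limma's test.

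Cell type markers moved with the same groups. The mean log2 level of 15 monocyte and macrophage genes was 10.12 to 10.91 with siTNF-OMe-P, 10.50 to 10.73 with siTNF-OMe, 10.22 to 10.81 with siTNF and 10.13 to 10.84 in scrambled, all above the 8.57 to 9.47 of Control. The 12 neutrophil genes averaged 7.94 to 9.50 with siTNF-OMe-P, 8.27 to 9.17 with siTNF-OMe, 7.98 to 9.83 with siTNF and 7.95 to 9.00 in scrambled, against 7.41 to 8.02 in Control. The 12 genes of dividing cells averaged 7.90 to 8.35 with siTNF-OMe-P, 7.91 to 8.19 with siTNF-OMe, 7.83 to 8.15 with siTNF and 7.84 to 8.17 in scrambled, against 8.19 to 9.42 in Control. Over Control, limma called 14 or 15 of the 15 monocyte and macrophage genes higher in each comparison, 11 of the 12 genes of dividing cells lower in each, and 6 of the 12 neutrophil genes higher with each TNF siRNA and 4 in scrambled. It called 9 of 9 smooth muscle genes higher in each comparison, and 8 or 9 of 9 without narrow arrays. Of 10 endothelial genes it called 9 higher with each TNF siRNA and 7 in scrambled, and 7 to 9 without narrow arrays. Of 7 fibroblast genes it called 4 higher with siTNF-OMe-P, 5 with siTNF-OMe, 3 with siTNF and 2 in scrambled. In these comparisons 11.7% to 15.9% of all probe sets were called, and 7.27% to 9.35% were called higher. Without narrow arrays 8.62% to 29.9% of all probe sets were called higher. The 14 colon epithelium genes averaged 11.80 or more on every array of every group, as the tissue label says. Squamous epithelium genes reached 10.13 on an siTNF-OMe-P array, 9.57 on an siTNF-OMe array and 8.58 on an siTNF array, against at most 7.52 in scrambled and 7.73 in Control. The part of these cells in the results below was not tested, and in bulk tissue fewer cells of a type and less RNA per cell cannot be told apart.

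Many members were higher in the siRNA-dosed groups than in Control, and none was lower beyond the test. With limma and Benjamini-Hochberg adjustment over all probe sets at 0.05, 11 of 32 members (34.4%) were called with siTNF-OMe-P, where 15.9% of all probe sets were called and 9.35% were called higher. With siTNF-OMe, 11 (34.4%) were called against 14.8% of all probe sets, and 9.01% of all probe sets were called higher. With siTNF, 16 (50%) were called against 13.8% of all, and 9.09% of all were called higher. In scrambled, 11 (34.4%) were called against 11.7% of all, and 7.27% of all were called higher. All of these member calls were higher than Control. The median member difference was 0.16 log2 with siTNF-OMe-P, 0.17 with siTNF-OMe, 0.26 with siTNF and 0.15 in scrambled, while the median over all probe sets was -0.03 with siTNF-OMe-P, -0.05 with siTNF-OMe, -0.04 with siTNF and -0.03 in scrambled. Few members separated the groups without overlap: 3 with siTNF-OMe-P (9.38%, against 3.51% of all probe sets), 6 with siTNF-OMe (18.8%, against 6.36%), 4 with siTNF (12.5%, against 3.24%) and 3 in scrambled (9.38%, against 2.68%). The 4 comparisons share the 9 Control arrays, so their agreement is not independent.

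**Figure D1:**
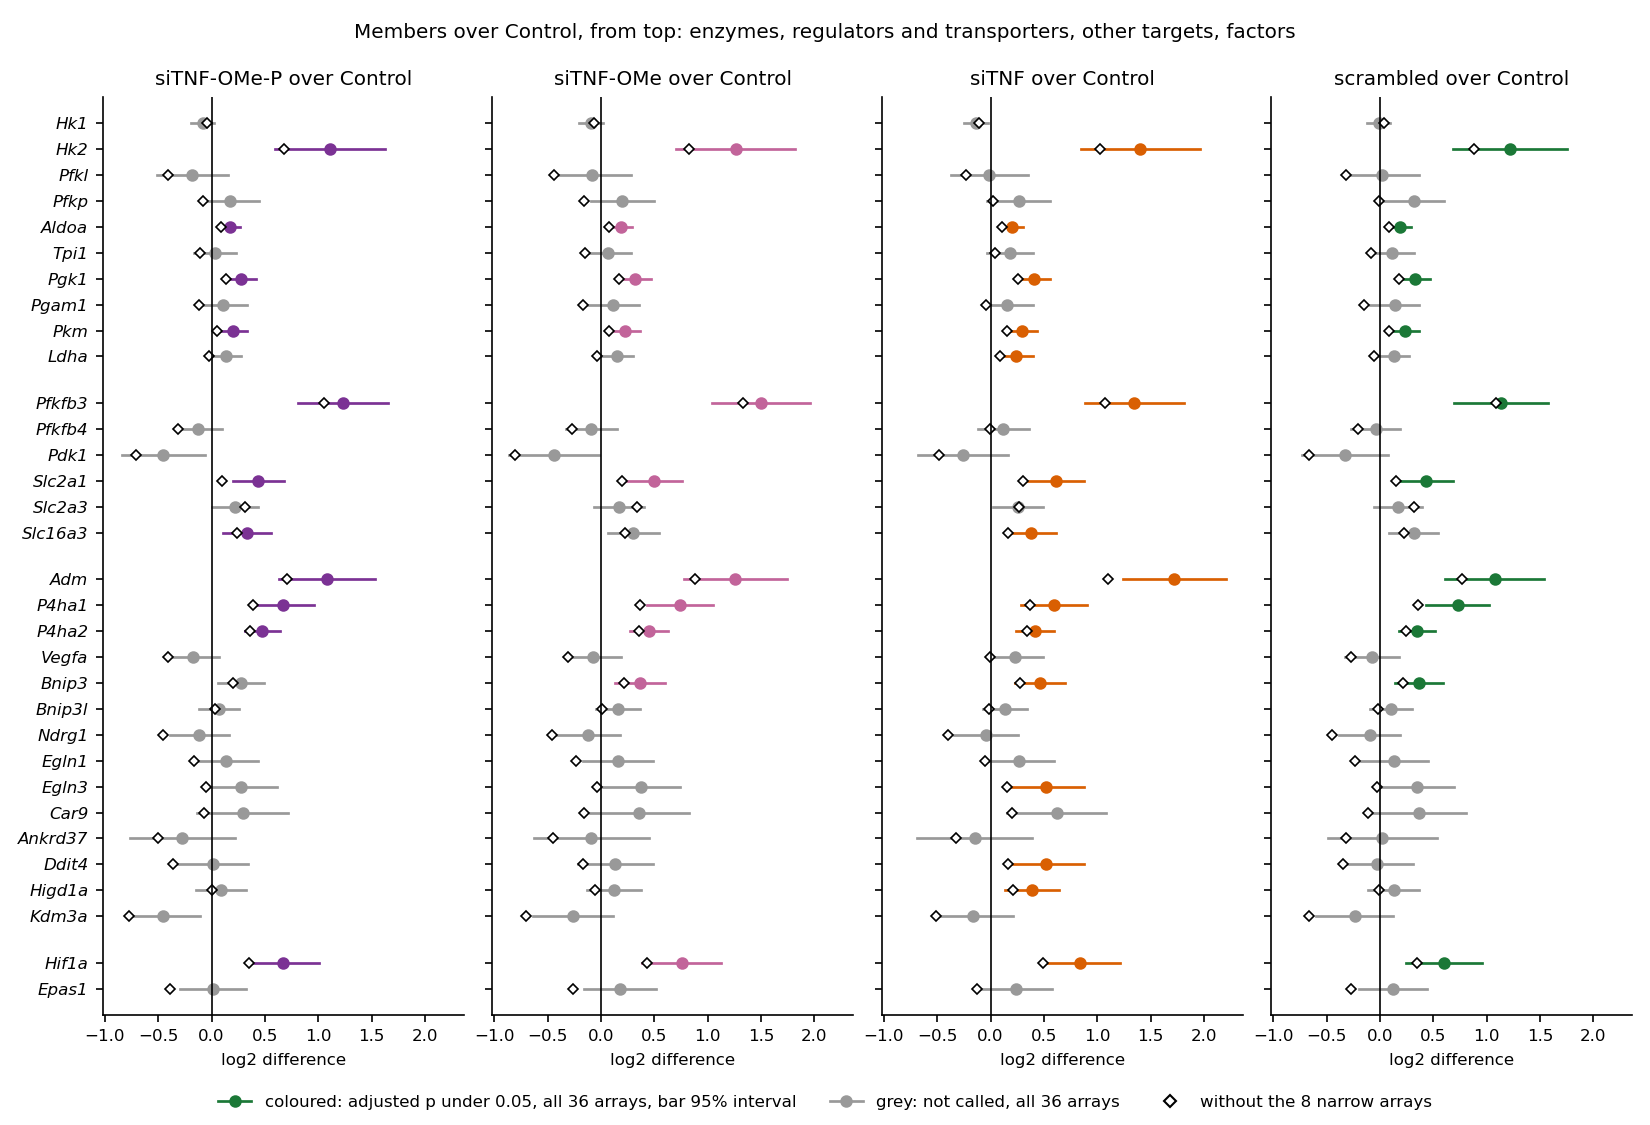
Log2 difference from Control of the 32 measured members (rows) with siTNF-OMe-P, siTNF-OMe, siTNF and scrambled (panels); points are limma estimates, bars their 95% intervals, coloured points passed the adjusted test, and diamonds give the estimate without the 8 narrow arrays. Every coloured point lies to the right of 0, with 11 members called in each panel but siTNF, which has 16, and many diamonds lie left of their points.

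Among the 10 glycolytic enzymes, 4 rose with siTNF-OMe-P, 4 with siTNF-OMe, 5 with siTNF and 4 in scrambled. Of all probe sets, 9.35%, 9.01%, 9.09% and 7.27% were called higher, in the same order. Hexokinase 2 (Hk2), the inducible enzyme that traps glucose in the cell, showed the largest differences among these 10 enzymes. Its log2 signal was 9.88 to 10.75 (median 10.52) with siTNF-OMe-P, 9.72 to 11.39 (median 10.55) with siTNF-OMe, 10.10 to 11.76 (median 10.66) with siTNF and 9.86 to 11.12 (median 10.48) in scrambled, against 8.31 to 10.23 (median 9.35) in Control. The highest Control arrays overlapped the lowest of each siRNA-dosed group. Hk2 was 2.16 times Control with siTNF-OMe-P (limma adjusted p = 0.00166), 2.40 times with siTNF-OMe (0.00106), 2.65 times with siTNF (4.04e-04) and 2.33 times in scrambled (0.0013). The constitutive hexokinase Hk1 did not pass, with differences of -0.13 to -0.01 on its brighter probe set, and its other probe set gave 0.09 to 0.26.

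The enzymes further down the pathway moved by much less. Pgk1, phosphoglycerate kinase, had signals of 12.23 to 12.50 (median 12.37) with siTNF-OMe-P, 12.21 to 12.49 (median 12.42) with siTNF-OMe, 12.38 to 12.75 (median 12.44) with siTNF and 12.33 to 12.51 (median 12.37) in scrambled, against 11.72 to 12.26 (median 12.18) in Control. The siTNF and scrambled arrays lay wholly above Control, while siTNF-OMe-P and siTNF-OMe overlapped it at 1 end. The Pgk1 difference was 0.27 log2 with siTNF-OMe-P (limma adjusted p = 0.00463), 0.32 with siTNF-OMe (0.00258), 0.41 with siTNF (1.95e-04) and 0.32 in scrambled (0.00181). Aldoa, the aldolase that splits fructose bisphosphate, rose by 0.17 to 0.20, and Pkm, pyruvate kinase, by 0.20 to 0.29, in all 4 comparisons. The Pkm values are those of its brighter probe set. Its other probe set gave 0.12 to 0.20 and passed in no comparison (limma adjusted p of 0.0988 to 0.365). Ldha, which turns pyruvate into lactate, passed only with siTNF (0.24, limma adjusted p = 0.0243) and was 0.14 with siTNF-OMe-P, 0.15 with siTNF-OMe and 0.13 in scrambled. That call was lost without siTNF replicate 4 or without siTNF replicate 5, at 0.18 and 0.23. Phosphofructokinases Pfkl and Pfkp, Tpi1 and Pgam1 passed in no comparison, with differences of -0.18 to 0.32.

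Of the 6 regulators and transporters, 3 rose with siTNF-OMe-P, 2 with siTNF-OMe, 3 with siTNF and 2 in scrambled. The shares of all probe sets called higher were 9.35%, 9.01%, 9.09% and 7.27%. Pfkfb3 makes fructose 2,6-bisphosphate, the strongest activator of phosphofructokinase. Its signal was 9.39 to 10.22 (median 9.91) with siTNF-OMe-P, 9.85 to 10.68 (median 10.00) with siTNF-OMe, 9.33 to 10.63 (median 9.84) with siTNF and 8.97 to 10.60 (median 9.81) in scrambled, against 8.21 to 9.01 (median 8.65) in Control. All 20 arrays of the TNF siRNA groups lay above all 9 Control arrays, and scrambled overlapped Control. Pfkfb3 was 2.35 times Control with siTNF-OMe-P (limma adjusted p = 4.43e-05), 2.82 times with siTNF-OMe (9.06e-06), 2.55 times with siTNF (5.8e-05) and 2.19 times in scrambled (3.33e-04). The glucose transporter Slc2a1 rose by 0.44 log2 with siTNF-OMe-P, 0.49 with siTNF-OMe, 0.61 with siTNF and 0.43 in scrambled, although every group overlapped Control, and the scrambled call was lost without scrambled replicate 3 (0.37).

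The lactate exporter Slc16a3 passed with siTNF-OMe-P (0.33, limma adjusted p = 0.0311) and siTNF (0.38, 0.0274), and was 0.30 with siTNF-OMe and 0.32 in scrambled. Those calls were unsteady: the siTNF-OMe-P call was lost in 8 and the siTNF call in 6 of 36 refits with 1 array left out, and without siTNF replicate 3 the difference was 0.26. Slc2a3, a second glucose transporter, and Pfkfb4, a relative of Pfkfb3, passed in no comparison. Pdk1, a kinase that inhibits pyruvate dehydrogenase, was on the other side. Its signal was 8.38 to 9.35 (median 8.78) with siTNF-OMe-P, 8.55 to 9.28 (median 8.82) with siTNF-OMe, 8.51 to 10.18 (median 8.91) with siTNF and 8.59 to 9.32 (median 8.96) in scrambled, against 8.59 to 9.92 (median 9.40) in Control. The Pdk1 differences of -0.45 to -0.26 did not pass, and the groups overlapped.

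Among the 14 other hypoxia targets, 3 rose with siTNF-OMe-P, 4 with siTNF-OMe, 7 with siTNF and 4 in scrambled. The shares of all probe sets called higher were again 9.35%, 9.01%, 9.09% and 7.27%. Adm encodes adrenomedullin, a vasodilator peptide that also protects the epithelial barrier. Its signal was 9.54 to 10.28 (median 9.76) with siTNF-OMe-P, 9.71 to 10.45 (median 9.97) with siTNF-OMe, 9.47 to 11.94 (median 10.21) with siTNF and 9.11 to 10.46 (median 9.90) in scrambled, against 8.04 to 9.28 (median 8.83) in Control. All TNF siRNA arrays lay above Control, and scrambled overlapped it. Adm was 2.12 times Control with siTNF-OMe-P (limma adjusted p = 4.5e-04), 2.39 times with siTNF-OMe (1.99e-04), 3.30 times with siTNF (3.38e-06) and 2.11 times in scrambled (0.00111). The highest value, 11.94, was siTNF replicate 3, a narrow array on which the squamous genes averaged 8.58. Without it the siTNF difference was 1.46 log2, against 1.72 with it.

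P4ha1 and P4ha2, catalytic subunits of the prolyl 4-hydroxylase that stabilises collagen, rose in all 4 comparisons. P4ha1 had signals of 9.27 to 10.02 (median 9.71) with siTNF-OMe-P, 9.59 to 9.89 (median 9.69) with siTNF-OMe, 9.09 to 9.84 (median 9.68) with siTNF and 9.47 to 9.94 (median 9.64) in scrambled, against 8.32 to 9.53 (median 9.07) in Control. The siTNF-OMe arrays lay above Control, and the other groups overlapped it. Its difference was 0.67 log2 with siTNF-OMe-P (limma adjusted p = 6.3e-04), 0.74 with siTNF-OMe (5.68e-04), 0.60 with siTNF (0.00561) and 0.73 in scrambled (5.66e-04). P4ha2 was the one member whose arrays lay above Control in all 4 groups, with lowest values of 8.26 with siTNF-OMe-P, 8.29 with siTNF-OMe, 8.22 with siTNF and 8.20 in scrambled, against a highest Control value of 8.18. Its differences were 0.47 log2 with siTNF-OMe-P, 0.45 with siTNF-OMe, 0.42 with siTNF and 0.35 in scrambled.

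Bnip3, which marks mitochondria for removal, rose with siTNF-OMe (0.37), siTNF (0.46) and scrambled (0.37), and was 0.27 with siTNF-OMe-P (limma adjusted p = 0.0788). Its siTNF-OMe call was lost without Control replicate 4, siTNF-OMe replicate 5 or siTNF-OMe replicate 6, and its scrambled call without scrambled replicate 4 (0.33). Ddit4, an inhibitor of mTOR signalling, the prolyl hydroxylase gene Egln3 and Higd1a, a mitochondrial survival gene, passed with siTNF alone. The Ddit4 difference of 0.52 was 0.29 and not called without siTNF replicate 4, whose signal of 10.47 stood above the siTNF median of 9.05. Higd1a was 0.39 with siTNF and lost its call without that array (0.32), among 4 such arrays. Egln3, at 0.52 with a limma adjusted p of 0.047, lost its call in 28 of 36 refits with 1 array left out. The same array, siTNF replicate 4, had the highest signal of all 36 in 13 of the 32 members, Pdk1 (10.18), Car9 (10.70) and Higd1a (12.89) among them.

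The other 7 targets passed in no comparison with Control. Vegfa, the vascular growth factor, had differences of -0.18 to 0.23, and Car9, a carbonic anhydrase often used as a marker of hypoxia, 0.29 to 0.62. Bnip3l, Egln1, Ndrg1 and Ankrd37 ranged from -0.27 to 0.26. Kdm3a, a histone demethylase, had signals of 8.83 to 9.57 (median 9.32) with siTNF-OMe-P, 9.28 to 9.54 (median 9.40) with siTNF-OMe, 9.19 to 10.24 (median 9.44) with siTNF and 9.22 to 9.62 (median 9.41) in scrambled, against 8.80 to 10.37 (median 9.89) in Control. The siRNA-dosed arrays lay within the Control range, and the differences of -0.45 to -0.16 did not pass.

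Of the 2 factors, Hif1a was called and Epas1 was not. Hif1a had signals of 10.77 to 11.37 (median 11.21) with siTNF-OMe-P, 10.96 to 11.49 (median 11.11) with siTNF-OMe, 10.77 to 11.46 (median 11.32) with siTNF and 10.49 to 11.51 (median 10.85) in scrambled, against 9.55 to 10.92 (median 10.48) in Control. The siTNF-OMe arrays lay above Control and the other groups overlapped it. The Hif1a difference was 0.67 log2 with siTNF-OMe-P (limma adjusted p = 0.00433), 0.76 with siTNF-OMe (0.0031), 0.84 with siTNF (0.00126) and 0.60 in scrambled (0.0178). The scrambled call was lost without scrambled replicate 2 or scrambled replicate 3, at 0.52 either way. Epas1 had differences of 0.01 to 0.24, none of which passed.

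**Figure D2:**
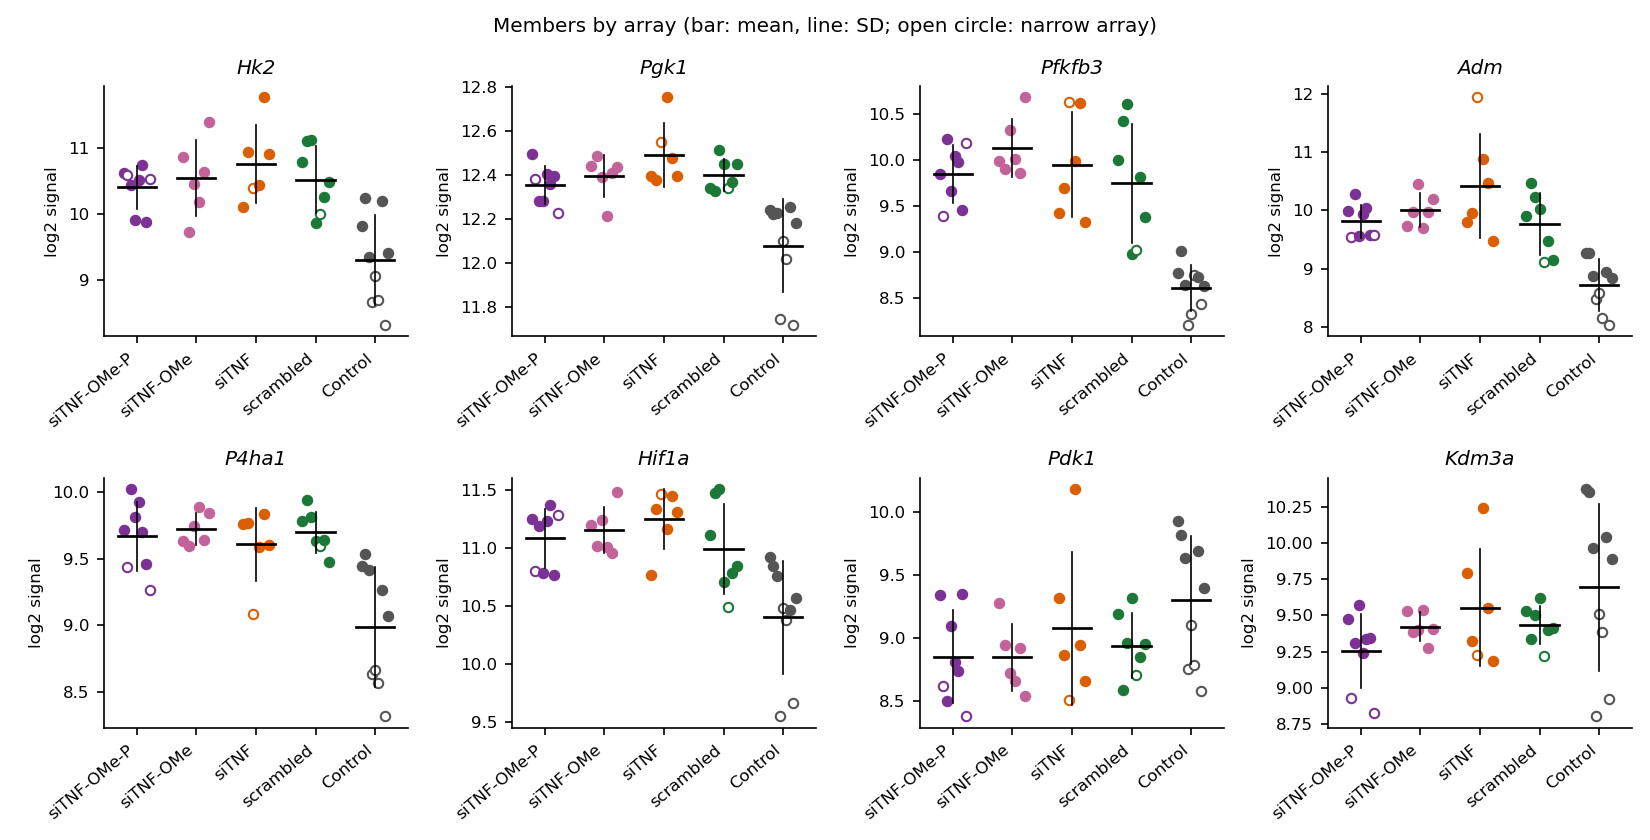
Log2 signal of Hk2, Pgk1, Pfkfb3, Adm, P4ha1, Hif1a, Pdk1 and Kdm3a on each array, by group (siTNF-OMe-P, siTNF-OMe, siTNF, scrambled, Control); bars are means, lines SDs and open points the 8 narrow arrays. The open Control points hold the low end of Hk2 (8.31 to 9.06) and of Kdm3a (8.80 to 9.51), while the other Control arrays of Kdm3a (9.89 to 10.37) stand above most siRNA-dosed arrays.

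The narrow arrays carried many of the extreme values. In 30 of 32 members the lowest of all 36 arrays was narrow, and in 28 it was a Control array. When the 8 arrays were left out, called probe sets made up 48.0% of all with siTNF-OMe-P, 54.0% with siTNF-OMe, 20.9% with siTNF and 50.0% in scrambled. In that fit 5 members were called higher and 7 lower with siTNF-OMe-P, where 26.1% of all probe sets were higher and 21.9% lower. With siTNF-OMe 8 were higher and 8 lower (29.9% and 24.1% of all), with siTNF 10 and 2 (8.62% and 12.2%), and in scrambled 7 and 5 (28.0% and 21.9%). The member median was then -0.03 log2 with siTNF-OMe-P, -0.05 with siTNF-OMe, 0.13 with siTNF and -0.01 in scrambled, while the median over all probe sets was 0.05 with siTNF-OMe-P, 0.06 with siTNF-OMe, 0.04 with siTNF and 0.07 in scrambled. Without these arrays the share of members called higher exceeded the share of all probe sets with siTNF only.

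What stayed higher in all 4 comparisons without narrow arrays was Pfkfb3 (1.05 to 1.33 log2), Adm (0.70 to 1.10), P4ha1 (0.36 to 0.39) and P4ha2 (0.25 to 0.36), joined by Slc2a3 (0.27 to 0.33). Hk2 was 0.68 to 1.03 and was lost with siTNF-OMe-P (limma adjusted p = 0.0677). Pgk1 (0.14 to 0.26) held in 3 comparisons, Hif1a (0.35 to 0.49) in 2, Slc2a1 (0.10 to 0.30) and Pkm (0.05 to 0.15) in 1, and Aldoa (0.08 to 0.11) in none. Of the 49 called pairs of member and comparison, 26 were called again.

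Called lower in all 4 comparisons of that fit were Kdm3a (-0.78 to -0.51) and Ndrg1 (-0.46 to -0.40), a hypoxia-induced gene of differentiating epithelium. Pdk1 (-0.81 to -0.67), Pfkl (-0.44 to -0.32) and Epas1 (-0.39 to -0.26) were lower with siTNF-OMe-P, siTNF-OMe and scrambled, and with siTNF their differences of -0.49, -0.23 and -0.12 did not pass. Vegfa was called lower with siTNF-OMe-P (-0.41) and siTNF-OMe (-0.31), Pfkfb4 with siTNF-OMe-P (-0.32), and Pfkp (-0.16) and Pgam1 (-0.17) with siTNF-OMe. With all arrays kept and array SD as a covariate, the 10 members called in all 4 comparisons were called again, 13 members in all were higher in all 4, and Kdm3a and Pdk1 were lower in all 4. In that fit 14 members were higher and 3 lower with siTNF-OMe-P, where 32.6% of all probe sets were called (16.5% higher, 16.0% lower). With siTNF-OMe 13 were higher and 2 lower (29.8% of all called, 14.3% higher, 15.5% lower), with siTNF 18 and 2 (26.3%, 13.2% higher, 13.1% lower), and in scrambled 14 and 2 (25.6%, 12.9% higher, 12.6% lower).

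**Figure D3:**
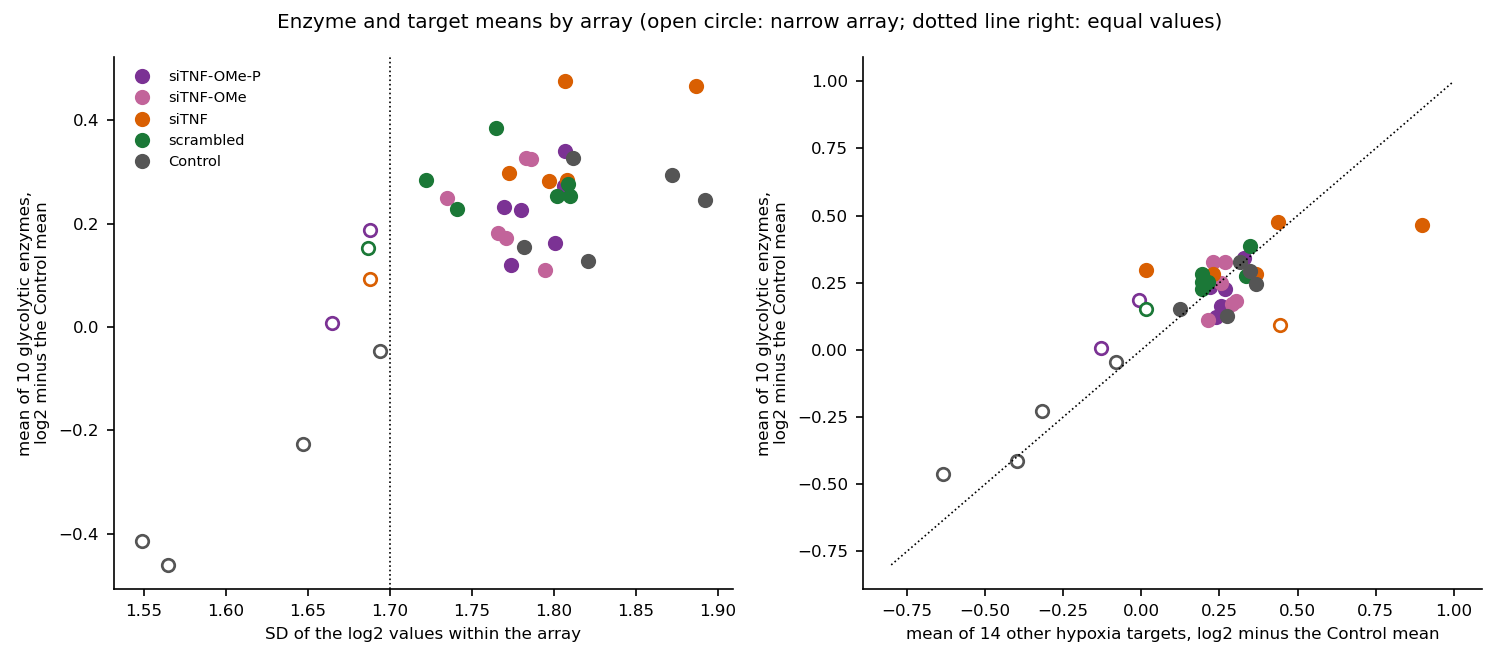
Left, mean log2 signal of the 10 glycolytic enzymes relative to the Control mean on each array, against the array's SD over all probe sets, with a line at 1.7; right, the same enzyme mean against the mean of the 14 other hypoxia targets, with a dotted line of equality. The narrow arrays hold the lowest enzyme means, down to -0.46 in Control, and the arrays lie along the line of equality with siTNF spread furthest from it.

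Glycolytic enzymes and other hypoxia targets were set against each other as the difference of their list medians. Enzymes minus targets was 0.04 log2 with siTNF-OMe-P, 0.01 with siTNF-OMe, -0.18 with siTNF and 0.03 in scrambled, relative to Control. Without narrow arrays it was 0.03 with siTNF-OMe-P, 0.05 with siTNF-OMe, -0.09 with siTNF and 0.08 in scrambled. Relative to scrambled it was -0.01 with siTNF-OMe-P, -0.02 with siTNF-OMe and -0.07 with siTNF. Without siTNF replicate 4 the siTNF value over Control was -0.12. A second measure, the enzyme mean minus the target mean of each array, averaged 0.02 with siTNF-OMe-P, -0.03 with siTNF-OMe, -0.08 with siTNF and 0.05 in scrambled, relative to the Control mean, with a within-group SD of 0.14. Without narrow arrays it averaged -0.03 with siTNF-OMe-P, -0.03 with siTNF-OMe, -0.03 with siTNF and 0.03 in scrambled, against -0.06 in Control, so that siTNF lay above Control there. With all arrays kept, no group differed from Control on this measure by more than that SD of 0.14. Once narrow arrays were left out, scrambled (SD 0.05) lay above Control (SD 0.08) by more than the SD of either group. The ranges of scrambled (-0.06 to 0.09) and Control (-0.15 to 0.03) still overlapped. For each TNF siRNA the difference from Control was then smaller than the SD of either group. Without narrow arrays the per-array enzyme mean had a median of 0.23 with siTNF-OMe-P, 0.22 with siTNF-OMe, 0.30 with siTNF and 0.27 in scrambled, against 0.25 in Control, and the ranges overlapped.

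Within batches the members with the largest differences kept their direction. Each member had 20 values, from 4 comparisons in 2 hybridization and 3 amplification batches. Each array lies in 1 hybridization and 1 amplification batch, so every array was used in both kinds of batch. The comparisons of a batch also share its Control arrays, and the 20 values are therefore not independent. In amplification batch 1 the siTNF-OMe and scrambled values rest on 1 array each, and the calls counted here include them. All 20 were higher than Control for Hk2 (0.50 to 2.01 log2, 9 called), Pfkfb3 (0.67 to 1.82, 12 called), Adm (0.41 to 2.89, 9 called), P4ha1 (0.08 to 1.07, 7 called), P4ha2 (0.11 to 0.59, 6 called) and Hif1a (0.14 to 1.18, 6 called). The same held for Pgk1, Slc2a1, Aldoa, Slc2a3, Slc16a3 and Bnip3. Kdm3a (-1.16 to 0.32) and Pdk1 (-0.89 to 0.28) were lower in 18 of 20.

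The number of members called varied widely between batches. Of the narrow Control arrays, replicates 4, 5 and 6 lay in amplification batch 2 and replicate 8 in batch 3. Replicate 4 lay in hybridization batch 1 and the others in batch 2. The median member difference in amplification batch 1 was -0.10 log2 with siTNF-OMe-P, -0.07 with siTNF-OMe, -0.02 with siTNF and -0.16 in scrambled. In amplification batch 2 it was 0.25, 0.28, 0.49 and 0.32, in the same order. The part of the narrow arrays was not tested. In hybridization batch 1 it was 1 with siTNF-OMe-P (4.89% of all probe sets called), 1 with siTNF-OMe (4.27%), 2 with siTNF (2.73%) and 0 in scrambled (3.57%). In hybridization batch 2 it was 7 with siTNF-OMe-P (7.68%), 7 with siTNF-OMe (7.29%), 7 with siTNF (5.49%) and 6 in scrambled (3.63%), and the member calls of both batches were higher than Control. Amplification batch 2 gave 9 with siTNF-OMe-P (10.5%), 7 with siTNF-OMe (7.58%), 17 with siTNF (13.1%) and 13 in scrambled (11.9%), all higher. Amplification batch 3 gave 0 in each, where few probe sets were called at all: 0.201% with siTNF-OMe-P, 0.700% with siTNF-OMe, 0.381% with siTNF and 0.187% in scrambled. Amplification batch 1 gave 7 with siTNF-OMe-P (5 of them lower, 30.5% of all probe sets called), 4 with siTNF-OMe (2 lower, 8.00%), 2 with siTNF (both lower, 6.78%) and 1 in scrambled (lower, 4.09%).

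No member separated any pair of siRNA-dosed groups. In all 6 comparisons limma called 0 of 32 members and 0 of 28853 probe sets (0%). At an unadjusted p under 0.05, 0 members differed with siTNF-OMe-P (2.90% of all probe sets) or siTNF-OMe (1.58%) over scrambled, and 4 with siTNF over scrambled (1.08%). Those 4 were Adm at 0.65 (95% interval 0.13 to 1.16), Ddit4 at 0.55 (0.18 to 0.92), Vegfa at 0.30 (0.03 to 0.58) and Hk1 at -0.12 (-0.24 to -0.00). The other Hk1 probe set gave 0.04. Without narrow arrays the Adm difference was 0.33. On siTNF replicates 3 and 4 the Ddit4 signal was 9.89 and 10.47, against 8.74 to 9.09 on the other siTNF arrays. Adm was 11.94 and 10.88 on those replicates, against 9.47 to 10.47. The 95% intervals of the 32 members reached from -0.83 to 0.55 with siTNF-OMe-P, from -0.68 to 0.85 with siTNF-OMe and from -0.74 to 1.16 with siTNF, and the median standard error was 0.14 log2 with each.

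The chemical modifications were compared with each other over the same members. At an unadjusted p under 0.05, 4 members differed for siTNF-OMe-P over siTNF (3.47% of all probe sets), all lower: Adm at -0.64 (-1.14 to -0.14), Ddit4 at -0.51 (-0.87 to -0.15), Vegfa at -0.40 (-0.67 to -0.13) and Higd1a at -0.30 (-0.56 to -0.04), with limma adjusted p of 0.974 or more. Vegfa alone differed for siTNF-OMe over siTNF (1.71%), at -0.30 (-0.59 to -0.02). No member differed for siTNF-OMe-P over siTNF-OMe (0.256%). The highest siTNF values of Adm and Ddit4 are those of siTNF replicates 3 and 4, given above. The intervals over all members ran from -1.14 to 0.43 when siTNF-OMe-P was set over siTNF, from -0.996 to 0.66 for siTNF-OMe over siTNF and, between the 2 modified siRNAs (siTNF-OMe-P over siTNF-OMe), from -0.74 to 0.43. A difference that missed the threshold does not show that the siRNAs act alike, and these comparisons share their arrays.

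**Figure D4:**
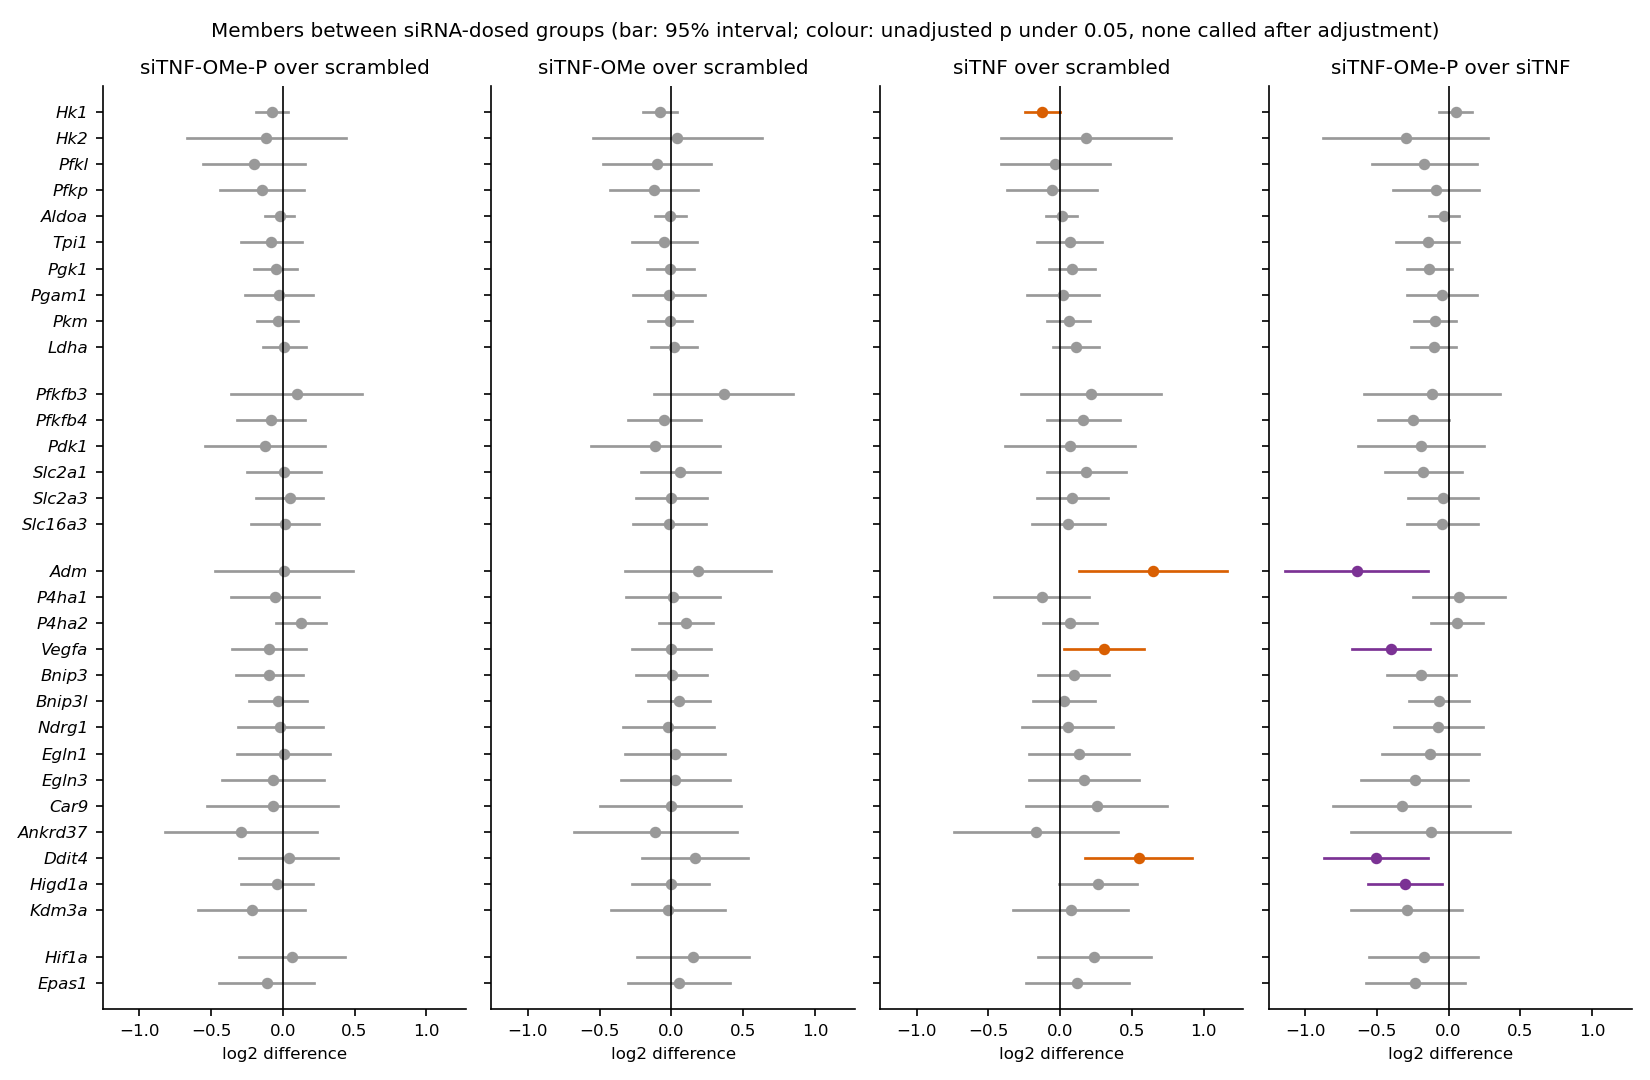
Log2 differences of the 32 members for siTNF-OMe-P, siTNF-OMe and siTNF over scrambled and for siTNF-OMe-P over siTNF; points are limma estimates and bars 95% intervals, with colour for an unadjusted p under 0.05. The colour marks 4 members for siTNF over scrambled and 4 for siTNF-OMe-P over siTNF, and none passed the adjusted test.

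Myeloperoxidase (MPO) activity, a neutrophil enzyme measured in the same animals, was related to the members over the 27 siRNA-dosed animals, with group and batches in the limma fit. No member and 0 of 28853 probe sets (0%) passed, and 4 members against 984 probe sets (3.41%) had an unadjusted p under 0.05. Pfkfb3 changed by 0.20 log2 per doubling of MPO activity (0.05 to 0.35) and Adm by 0.17 (0.04 to 0.30). Pfkl (-0.10) and Pgam1 (-0.06) ran the other way. The limma adjusted p was 0.98 for all 4. Without the 2 animals farthest in MPO activity the Pfkfb3 slope was 0.39 (0.21 to 0.57) and the Adm slope 0.29 (0.12 to 0.46), with limma adjusted p of 0.182 and 0.317, and 7 members had an unadjusted p under 0.05. With no batch terms, or without narrow arrays, no member did, and the slopes were 0.13 and 0.16 for Pfkfb3 and 0.14 and 0.10 for Adm.

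The rest of these pathways was described from lists of other genes. Over all probe sets, 9.35% were called higher with siTNF-OMe-P, 9.01% with siTNF-OMe, 9.09% with siTNF and 7.27% in scrambled. Without narrow arrays 26.1% were higher and 21.9% lower with siTNF-OMe-P, and 29.9% and 24.1% with siTNF-OMe. In that fit 8.62% and 12.2% were so with siTNF, and 28.0% and 21.9% in scrambled. The counts in this and the next paragraph are to be read against these shares, and some lie near them. Of 43 further hypoxia targets, 20 rose and 1 fell with siTNF-OMe-P, 18 and 0 with siTNF-OMe, 19 and 0 with siTNF, and 12 and 0 in scrambled. Ier3, an early response gene of inflammation and stress (1.20 to 1.76 log2), Hmox1, haem oxygenase (1.07 to 1.86), and Nos2, the inducible nitric oxide synthase of macrophages (1.00 to 1.46), rose in all 4 comparisons. Without narrow arrays 16 of the 43 were higher and 7 lower with siTNF-OMe-P, 17 and 9 with siTNF-OMe, 10 and 3 with siTNF, and 10 and 9 in scrambled. In that fit Ier3, Hmox1 and Nos2 were called again in all 4, at 0.80 to 1.20, 1.03 to 1.44 and 1.22 to 1.91.

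Of 34 further genes of glycolysis and pyruvate metabolism, 5 rose and 5 fell with siTNF-OMe-P, 5 and 6 with siTNF-OMe, 7 and 3 with siTNF, and 5 and 2 in scrambled. Pdp1, the phosphatase that reactivates pyruvate dehydrogenase (0.55 to 0.69), and Eno2, the enolase isoform best known from neurons (0.52 to 0.65), rose in all 4. Hk3, the hexokinase typical of myeloid cells, rose by 0.40 to 0.57. Eno3, the muscle enolase, fell by 0.64 to 1.01. Without narrow arrays most called genes of this list were lower: 5 were higher and 20 lower with siTNF-OMe-P, 4 and 20 with siTNF-OMe, 5 and 12 with siTNF, and 5 and 17 in scrambled. Of 34 genes of the tricarboxylic acid cycle and respiratory chain, 3 fell and 0 rose with siTNF-OMe-P, 1 and 0 with siTNF-OMe, 1 and 0 with siTNF, and 1 and 1 in scrambled. Idh3a, a subunit of isocitrate dehydrogenase, was lower in all 4 (-0.71 to -0.57). Without narrow arrays 27 of these 34 genes were lower with siTNF-OMe-P, 29 with siTNF-OMe, 11 with siTNF and 26 in scrambled. Of 17 oxygen sensors and HIF partners, 3 rose with siTNF-OMe-P, 1 with siTNF-OMe, 2 with siTNF and 0 in scrambled, and none fell. Without narrow arrays 1 was higher and 4 lower with siTNF-OMe-P, 2 and 5 with siTNF-OMe, 0 and 1 with siTNF, and 1 and 5 in scrambled.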

How the data were processed

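Per the labels, colon RNA was extracted with a column kit, 25 ng was amplified as whole transcriptome, and cDNA was biotin labelled and hybridized to 1 Affymetrix array per animal. The deposited values are on a log2 scale and were produced by the authors with RMA in Partek, per the submitters' processing notes, which give no versions. Signal over background, and whether batch effects were removed, are not given in the sources used here, and the number of arrays limits the precision. The platform annotation assigns 1 gene to 21789 of 28853 probe sets, several to 1621 and none to 5443. Of the members, 7 had several probe sets. The myeloperoxidase activities are the authors' deposited label values.

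All 36 arrays were fitted together in limma 3.58.1 (R 4.3.3), with terms for the group and for both kinds of batch, and variances were moderated with a trend on the mean. Each of 10 comparisons was tested on both sides, and p values were adjusted over the whole table (Benjamini-Hochberg, called under 0.05) without a filter on low values. The fit was tested on simulated data. Tables and figures used Python 3.11.15, NumPy 2.4.6, pandas 2.3.3, SciPy 1.17.1 and matplotlib 3.10.9.

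Alternatives were no batch terms, each batch alone, the replicate number as a block, only the groups compared, quantile normalization, median centring, removal of the dimmest 40% of probe sets, robust moderation, array weights, array SD as a covariate, narrow arrays (SD under 1.7) left out, the mean of a gene's probe sets, and each array left out in turn. All members are reported, those called by name. From each further pathway list, the 2 highest and 2 lowest called genes per comparison may be named. The members, lists and tests were chosen with earlier results of these data known.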

Additional observations from a re-analysis of the deposited data

Results flagged for a closer look

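In 11 of 160 sets of values (1 member in 1 group) the highest or lowest array stood further from the rest than Dixon's 95% critical value allows. Chance flags about 1 in 20 sets. In siTNF replicate 3, a narrow array, Slc2a3 was high (8.62, next 7.78), and Pfkp (11.03, next 11.51) and P4ha1 (9.09, next 9.59) were low. Bnip3 (9.51, next 9.98) and Egln1 (9.00, next 9.54) were low in siTNF-OMe-P replicate 8 and Higd1a (11.53, next 12.16) in siTNF-OMe-P replicate 2, both also narrow arrays. On arrays that were not narrow, Hk1 was low in siTNF-OMe replicate 5 (12.80, next 13.06), Pgk1 in siTNF-OMe replicate 4 (12.21, next 12.39) and Pkm in scrambled replicate 1 (12.39, next 12.54). Slc16a3 was high in scrambled replicate 3 (9.62, next 9.29), and Epas1 in siTNF replicate 5 (11.25, next 10.94). The Bnip3 value lies in the one comparison where Bnip3 was not called over Control. Without narrow arrays Bnip3 was called in no comparison with Control, at 0.20 to 0.27 log2.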

How the results depend on the processing

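Of the 49 called pairs of member and comparison with Control, 49 were called again with no batch terms, with dim probe sets left out and with array SD as a covariate, 48 with robust moderation, 47 with quantile normalization, 46 with the mean of a gene's probe sets, 40 with array weights, 38 with median centring, 26 without narrow arrays and 26 with other groups left out of the fit. Member counts moved by over 1.5 times with the other groups left out (7 with siTNF-OMe-P, 5 with siTNF and 6 in scrambled, where 9.73%, 4.58% and 6.00% of all probe sets were called), with array weights (19 with siTNF-OMe-P and 20 in scrambled, where 47.1% and 56.4% of all were called) and with array SD as a covariate (17 with siTNF-OMe-P, where 32.6% of all were called). They also moved in hybridization batch 1 (1 with siTNF-OMe-P, 1 with siTNF-OMe, 2 with siTNF, 0 in scrambled). In hybridization batch 2 they were 7, 7 and 7 with the TNF siRNAs and 6 in scrambled. Amplification batch 1 gave 7 with siTNF-OMe-P and 2 with siTNF. Amplification batch 2 gave 7 with siTNF-OMe, and amplification batch 3 gave 0 in each group. The amplification batches were added after seeing the data. In amplification batch 1, signs reversed for Pkm with siTNF-OMe (-0.0081) and scrambled (-0.107), Ldha with siTNF (-0.0142) and Ddit4 with siTNF (-0.018), and Ddit4 with siTNF also in batch 3 (-0.0724). Enzymes minus targets for siTNF over Control was -0.0415 with array weights, -0.0058 in amplification batch 1 and 0.0928 in batch 3, against -0.181 in the fit reported, and for siTNF over scrambled it was -0.322 in batch 2. The causes were not tested. With 1 array left out, members called over Control numbered 9 to 14 with siTNF-OMe-P, 9 to 12 with siTNF-OMe, 12 to 17 with siTNF and 9 to 12 in scrambled, and 12 of the 49 pairs lost their call at least once: besides those named above, Pkm with siTNF-OMe-P in 7 refits (0.14 to 0.20) and with siTNF-OMe in 3 (0.19 to 0.22). No member was called between siRNA-dosed groups or on MPO activity under any alternative run. The replicate block in place of the batch terms gave 11 members with siTNF-OMe-P, 11 with siTNF-OMe, 13 with siTNF and 10 in scrambled. Arrays sharing a number had a median correlation of 0.12, against -0.006 for other numbers, and 5 of 36 correlated best with their own number. These values do not settle whether the numbers pair the animals.

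No measure of signal over background was at hand, so which members lie near it is unknown. The 8 narrow arrays, 4 of them Control, hold most of the lowest member values. Every comparison with Control uses the same 9 arrays, whose treatment is not settled.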
